A study of Mus musculus with 4 samples.

Results

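Nuclei of the inner medullary collecting duct (IMCD) with a high count of Fxyd4 were examined in single-nucleus RNA-seq of mouse kidney medulla. A nucleus was a member when it held at least 5 unique molecular identifiers (UMIs, each a counted RNA molecule) of Aqp2, at least 10 of Cryab, at least 5 of Fxyd4 and 0 of Scnn1b and Scnn1g. This rule took 278 of 27343 nuclei kept, 63 and 118 in control mice 1 and 2 and 36 and 61 in knockout mice 1 and 2. The levels of these 5 genes were therefore set by the selection and are given as a description, without a test. Of the nuclei kept, 1239 held at least 5 UMIs of Aqp2, 679 of them also reached the limit for Cryab, and 623 of those held neither sodium channel subunit. Below the Fxyd4 limit lay 345 of these 623 nuclei, called Fxyd4-low here, which are the nearest population for comparison. The second comparison was with 169 sodium channel principal nuclei, with at least 5 UMIs of both Aqp2 and Fxyd4 and at least 1 of both Scnn1b and Scnn1g.

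The collecting duct carries the urine through cortex and medulla, and its principal cells take up water through the apical channel Aqp2 under vasopressin and pass it on through basolateral Aqp3 and Aqp4. In the inner medulla these cells also let urea through, by the transporters encoded by Slc14a2, and live in a hypertonic interstitium, against which they hold osmolytes and heat shock proteins such as the small chaperone Cryab. The epithelial sodium channel, of which Scnn1b and Scnn1g encode subunits, belongs to the segments upstream, and Fxyd4 encodes a regulatory subunit of the sodium pump known from the collecting duct. Tfap2a, the gene deleted in the study, encodes a transcription factor of the AP-2 family.

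Medullary tissue of 12-week-old male mice was used, with 1 library from each of 4 mice. The knockout mice were Hoxb7Cre+ and Tfap2a fl/fl, and the controls carried the same floxed alleles without Cre. Hoxb7Cre acts in the ureteric bud and the collecting duct that grows from it, so tubule segments of other origin kept Tfap2a, and the counts do not show which nuclei had recombined. The labels do not say whether mice with the same number were processed together, and the libraries numbered 1 were the deeper ones in both groups. Single-nucleus libraries count the 3' end of a transcript, which for Tfap2a lies outside the deleted exons, so UMIs of Tfap2a do not check the genotype labels.

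The libraries held 22179410 to 44964099 UMIs, and the members of control mice 1 and 2 summed to 287877 and 578343 UMIs and those of knockout mice 1 and 2 to 173324 and 279262. The median depth of a member was 4639.5 UMIs, from 4301 to 4724 by mouse, against 3865 to 4833 in Fxyd4-low nuclei. Control mouse 1 stood apart in mitochondrial UMIs: 14 of its 63 members lay under 1%, against 112 of 118, 28 of 36 and 61 of 61 in control mouse 2 and knockout mice 1 and 2. Between 7 and 18 barcodes of kept nuclei were shared by each pair of libraries, and no barcode was a member in both. Of the members, 17 were called doublets by comparison with simulated doublets and were kept, with the results also computed without them.

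Promoter sequence was read from RefSeq on the mouse build GRCm38.p6 (mm10), in the 250 bases before the annotated start, for Fxyd4 and for a pair of genes that separated the members from Fxyd4-low nuclei. The AP-2 motif was searched as GCCNNNGGC, which reads the same on both strands, because the factor deleted is of this family. The core of the tonicity element TonE was searched as TGGAAA on both strands, because tonicity genes made up a listed group. The letters of AP-2 were present in 20.1% of promoters of genes tested between members and Fxyd4-low nuclei, in 18.5% of those higher and in 19.9% of those lower in members. TGGAAA was present in 15.0%, 14.8% and 16.7% of the same groups of promoters. The shares among genes that separated the populations lay within 2 percentage points of those among all genes tested, and a match only describes the letters. For Fxyd4, whose whole annotated span is chr6:117933558-117937714 on the minus strand, the RefSeq window belongs to a start inside that span and not to its outer end. Of this window the match and 10 bases on each side are shown, chr6:117937370-117937398, which thus also lies inside the span. For Hspb1 the 250 bases are chr5:135887669-135887918 on the plus strand and for Nupr1 chr7:126625471-126625720 on the minus strand. Capitals mark the AP-2 letters in Fxyd4 and the TonE core, in either orientation, in the others.
Fxyd4: ctggtgtgtgGCCCAGGGCggagcccctg
Hspb1: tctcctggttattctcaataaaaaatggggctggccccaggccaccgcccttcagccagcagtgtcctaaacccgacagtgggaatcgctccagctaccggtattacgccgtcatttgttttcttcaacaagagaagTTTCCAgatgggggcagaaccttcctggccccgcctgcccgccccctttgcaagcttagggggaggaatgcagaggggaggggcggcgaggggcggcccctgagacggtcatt
Nupr1: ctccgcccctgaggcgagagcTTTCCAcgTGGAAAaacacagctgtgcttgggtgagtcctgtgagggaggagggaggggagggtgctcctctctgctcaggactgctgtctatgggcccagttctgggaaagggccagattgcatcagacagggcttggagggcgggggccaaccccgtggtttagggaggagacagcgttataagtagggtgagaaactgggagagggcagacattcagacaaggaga

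In Nupr1 the core occurred on both strands, 2 bases apart, and in Hspb1 once. The window of Hspb1 also held 1 match to the AP-2 letters, not marked here. No match to either motif was found in the windows of Aqp2, Aqp3, Plet1, Wnt9b and Alcam. Hsph1 and Hspa4l, heat shock genes of the tonicity list, were also searched and held no TonE core. The AP-2 letters were present in 2 of 2 windows of Hsph1 and in 1 of 1 of Hspa4l, not printed here. Aldh1a3, Cryab and Akr1b3 were not analysed for motifs.

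The name of the population was checked against the 3 IMCD markers that the rule did not use. At least 1 UMI of Aqp4, the basolateral water channel, was found in all 278 members, of Plet1, a surface protein of epithelia, in 275 (98.9%) and of Aldh1a3, which makes retinoic acid, in 255 (91.7%). In proximal tubule nuclei, which should lack these genes and had a median depth of 3323 UMIs, the shares were 1.99%, 2.69% and 0.525%. After thinning of each nucleus to 2000 UMIs, Aldh1a3 was found in 54.0% and 86.3% of members of control mice 1 and 2 and in 72.2% and 93.3% of those of knockout mice 1 and 2, against 0.0867% to 0.908% of proximal tubule nuclei. The urea transporter gene Slc14a2 was found in 196 members (70.5%) and in 0.516% of proximal tubule nuclei. All 3 markers lay far above that background. Among sodium channel principal nuclei, however, 63.6% to 95.1% by mouse held Aqp4 and 70% to 87.5% held Plet1. The presence of these 2 genes is thus shared with that population. Aldh1a3 was found in 1 of the 81 principal nuclei of control mouse 2 and in none of the other mice. The labels give no position of a nucleus along the medulla, so the population is called Fxyd4-high rather than upper.

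The selection genes varied widely among the members. Fxyd4 ranged from 5 to 58 UMIs with a median of 10, Cryab from 10 to 211 with a median of 37, and Aqp2 from 8 to 134 with a median of 42. In the summed members, Fxyd4 stood at 2584 and 2227 UMIs per 1000000 UMIs of the summed nuclei (counts scaled to CPM) in control mice 1 and 2 and at 2510 and 3019 in knockout mice 1 and 2. Aqp2 stood at 12887 and 8253 and at 9456 and 9600, and Cryab at 11411 and 7866 and at 14632 and 10721 CPM in the same order. For each of the 3 genes the control and knockout mice overlapped. The selection genes were also counted outside the collecting duct, since 29.5% of proximal tubule nuclei held a UMI of Cryab and 9.03% one of Aqp2. Single proximal tubule nuclei held up to 299 UMIs of Cryab and 59 of Aqp2. The parts of free RNA and of doublets in these counts were not tested.

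Members just inside the Fxyd4 limit resembled nuclei just outside it. The 34 nuclei with 5 UMIs of Fxyd4 had Aqp4 at 2307, Aldh1a3 at 803 and Plet1 at 1808 CPM, and the 32 nuclei with 4 UMIs had 2273, 806 and 2044. At the limit of Cryab lay 4 nuclei with 10 UMIs and 9 with 9 UMIs, and no nucleus lay at 5 or 4 UMIs of Aqp2 with the rest of the rule met. Of nuclei that failed only by the sodium channel, 14 held 1 UMI and 32 held 2 or more, and Aldh1a3 stood at 931 CPM in the former and 50.7 in the latter.

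**Figure D1:**
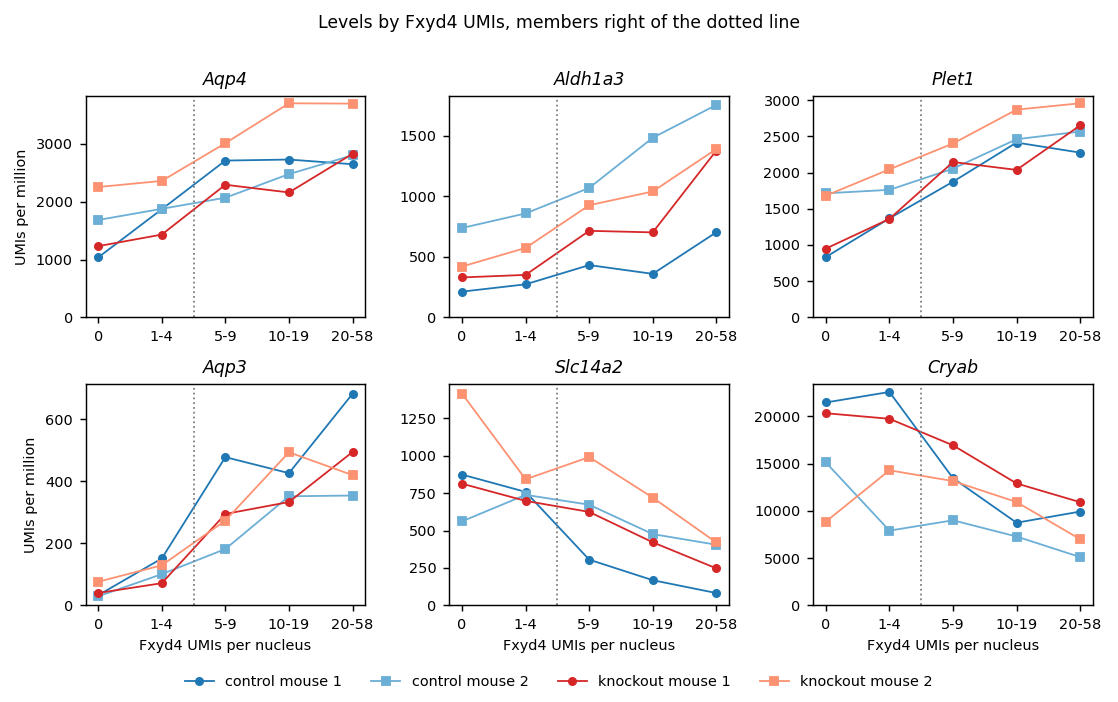
CPM of 6 genes (vertical axes, each from 0) in nuclei that met the limits for Aqp2, Cryab and the sodium channel, grouped by their Fxyd4 UMIs (horizontal axis), with 1 line per mouse and the members right of the dotted line. Between 0 and 20 to 58 UMIs of Fxyd4, Aldh1a3 went from 212 to 703 and from 739 to 1756 in control mice 1 and 2 and from 329.9 to 1379 and from 420.2 to 1392 in knockout mice 1 and 2.

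Along the count of Fxyd4 the levels of other genes differed by degrees, as shown in the plot of levels by Fxyd4 UMIs. Over all mice, the bins of 0, 1 to 4, 5 to 9, 10 to 19 and 20 to 58 UMIs held 138, 207, 131, 112 and 35 nuclei, and the mix of mice differed between them, with 94 of the 138 but 8 of the 35 from control mouse 1. Values summed over all mice carry that mix, so each mouse was read by itself. Aqp3, the basolateral water channel gene, was higher at 20 to 58 than at 0 UMIs in each mouse, at 683 against 33.0 and 355 against 29.5 CPM in control mice 1 and 2 and at 495 against 40.2 and 420.4 against 76.4 in knockout mice 1 and 2. Aqp4 and Aldh1a3 were likewise higher in the last than in the first bin of each mouse, by smaller ratios. The selection gene Cryab was lower in the last than in the first bin of each mouse, but in knockout mouse 2 it went from 8863 to 14295 before it reached 7002, and Slc14a2 was not in steady order over the first 3 bins in either mouse numbered 2. Within the members, Slc14a2 was lower in the highest than in the lowest bin of each of the 4 mice, at 82.7 against 306 and 405 against 672 in control mice 1 and 2 and at 247 against 624 and 420.4 against 990.2 in knockout mice 1 and 2. The bins share libraries, and the highest bin held 5 to 13 nuclei per mouse. The lowest bin held 94 and 29 nuclei in control and knockout mouse 1 but only 8 and 7 in control and knockout mouse 2. In both mice numbered 2 the Aqp3 values of the lowest bin thus rest on few UMIs. No test was made along the bins.

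The comparison with Fxyd4-low nuclei asked which other genes separated both parts of the IMCD, with UMIs summed per mouse and the mouse as a term in edgeR. Of 10657 genes tested, 312 were higher (2.93%) and 258 lower (2.42%) in members by edgeR, with p-values adjusted after Benjamini-Hochberg and a threshold of 0.05. The members had more transcripts of Aqp3, of the prostaglandin receptor gene Ptger1, of the retinoid genes Aldh1a3 and Aldh1a1 and of 4 adhesion genes. They had less of 6 genes of urea transport, osmolytes and heat shock. The median log2 difference over all genes tested was -0.01. The number of calls was 295 without control mouse 1, 318 without knockout mouse 1 and 315 with nuclei under 1% mitochondrial UMIs alone, and DESeq2 called 191 genes, all of them among the 570.

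**Figure D2:**
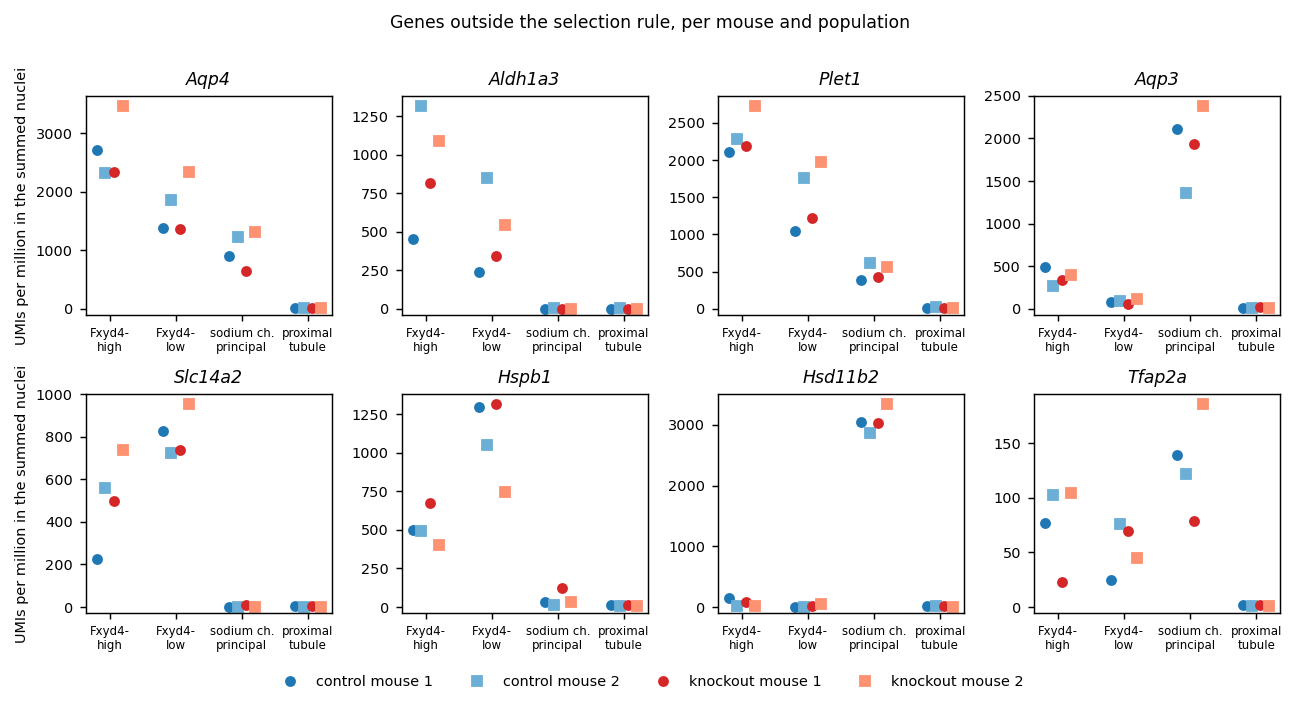
CPM in the summed nuclei (vertical axes, drawn from just under 0) of 8 genes outside the selection rule in Fxyd4-high, Fxyd4-low, sodium channel principal and proximal tubule nuclei, with 1 point per mouse. Aqp3 lies at 273 to 497 in Fxyd4-high nuclei, above Fxyd4-low and below sodium channel principal nuclei in each mouse, and Hspb1 is lower in Fxyd4-high than in Fxyd4-low nuclei of each mouse.

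Among the 12 tested genes of water channels and vasopressin signalling, 3 were higher, 1 was lower and 8 did not pass, with a median log2 difference of 0.07. Aqp3 stood at 497 and 273 CPM in members of control mice 1 and 2 and at 340 and 401 in those of knockout mice 1 and 2, against 81.9, 94.6, 61.3 and 119 in Fxyd4-low nuclei of the same mice. The lowest member value lay above the highest Fxyd4-low value, and the difference was 4.51-fold (log2 2.17 ± 0.18 SE, adjusted p = 9.08e-15, edgeR). Aqp4 was 1.62-fold higher (log2 0.69 ± 0.13 SE, adjusted p = 5.21e-05, edgeR), at 2706 and 2320 in control and 2337 and 3466 CPM in knockout members. The phosphodiesterase gene Pde3b was 2.88-fold higher and Pde4d, which breaks down cyclic AMP, was lower (log2 -0.45 ± 0.14 SE). The vasopressin receptor gene Avpr2 gave a log2 difference of 0.16 ± 0.16 SE that did not pass (adjusted p = 0.749, edgeR).

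Genes of urea transport, osmolytes and tonicity were lower in members where they passed. Of 14 tested, 6 were lower, none was higher and 8 did not pass, with a median log2 difference of -0.73, and 13 of the 14 lay below 0. Akr1b3, the aldose reductase that makes sorbitol, stood at 1768, 4056, 3808 and 3337 CPM in members of control mice 1 and 2 and knockout mice 1 and 2, against 7149, 6593, 8550 and 7538 in Fxyd4-low nuclei. The groups did not overlap, and members were lower (log2 -1.22 ± 0.14 SE, adjusted p = 5.93e-10, edgeR), although RefSeq lists a pseudogene of Akr1b3 that could share its reads. Hspb1, a small heat shock protein, stood at 497, 493, 675 and 401 in members and at 1299, 1048, 1317 and 745 in Fxyd4-low nuclei.

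Hspb1 thus was lower (log2 -1.07 ± 0.13 SE, adjusted p = 6.03e-09, edgeR). The heat shock genes Hsph1 and Hspa4l were lower (1.95-fold and 2.83-fold), as were the betaine transporter gene Slc6a12 (3.18-fold) and Slc14a2 (1.65-fold). Slc14a2 was lower in each mouse, with 226 against 826 CPM in control mouse 1, 560 against 722 in control mouse 2, 496 against 736 in knockout mouse 1 and 738 against 953 in knockout mouse 2. Nfat5, the transcription factor that responds to tonicity, gave no call (adjusted p = 0.959, edgeR), nor did the heat shock genes Hspa1a and Hspa1b, near-identical copies whose reads cannot be told apart with certainty. Cryab, whose level in members was partly set by the rule, was left out of this list's counts.

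Retinoid and prostaglandin genes split between the populations. Of 9 tested, 3 were higher and 2 lower in members, with a median log2 difference of 0.13. Aldh1a3 was 1.95-fold higher, at 455, 1319, 819 and 1089 CPM against 237, 848, 344 and 544 in Fxyd4-low nuclei, and was higher in each of the 4 mice although the values of the groups overlapped between mice. Aldh1a1, a related enzyme, was 3.52-fold higher, whereas the retinoic acid receptor gene Rarb was lower (log2 -1.83 ± 0.21 SE, adjusted p = 1.43e-09, edgeR). Ptger1, receptor of prostaglandin E2, was higher in members (log2 1.93 ± 0.19 SE), and Ptgs1, a cyclooxygenase, was lower (log2 -0.77).

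Of the sodium pump and FXYD genes, 4 passed the filter on low counts and 1 was called. Fxyd2, a sodium pump subunit of the family of Fxyd4, stood at 1970, 1950, 2273 and 1683 CPM in members, against 4758, 3864, 4948 and 3136 in Fxyd4-low nuclei. Thus Fxyd2 was lower (log2 -1.04 ± 0.12 SE, adjusted p = 2.67e-09, edgeR) in the nuclei selected for high Fxyd4. Of 11 genes of the sodium channel, aldosterone and potassium channel list, 3 were higher and none lower. These were the mineralocorticoid receptor gene Nr3c2 (1.52-fold), the potassium channel gene Kcnq1 (1.55-fold) and Hsd11b2, which keeps cortisol-like steroids off that receptor. Hsd11b2 stood at 156, 17.3, 86.5 and 17.9 CPM in members and at 8.33, 2.63, 10.7 and 44.7 in Fxyd4-low nuclei, and knockout mouse 2 went against the other mice.

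Transcription factors and adhesion genes that were called were nearly all higher in members. Of 16 collecting duct transcription factors tested, 3 were higher, namely the homeobox genes Emx2 (1.62-fold) and Hoxd8 (1.92-fold) and Tfcp2l1 (3.02-fold), a factor of principal and intercalated cells, which in control mouse 2 stood at 27.7 CPM in members and 28.9 in Fxyd4-low nuclei. Of 22 adhesion and junction genes, Cdh16, Epcam and Cldn3 (log2 0.68, 0.59 and 1.58) and Alcam were higher and the integrin gene Itga2 was lower. Among 13 Wnt genes the receptor gene Fzd4 (3.34-fold) and the co-receptor gene Lrp6 (1.44-fold) were higher and 11 did not pass. Alcam was 1.59-fold higher, but control mouse 2 went the other way, with 545 CPM in members and 586 in Fxyd4-low nuclei.

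Outside the lists, the genes with the largest differences that held in each of the 4 mice had low to moderate counts. The growth factor-like gene Ctgf was higher by a log2 of 3.35 ± 0.39 SE, the signalling gene Vav3 by 2.91, the kinase gene Cdk14 by 2.41 and the protease inhibitor gene Spink8 by 2.21. Cdk14, for example, stood at 212, 187, 202 and 272 CPM in members and at 48.6, 42.0, 18.7 and 52.1 in Fxyd4-low nuclei. Tril, Tmem229a, Mgst1, Soat1, Upk3b and the EGF family gene Btc were also among the genes named as higher, with Aqp3.

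Among genes with at least 50 UMIs and the same direction in each mouse, the largest negative differences were in Tmem54, Krt19, Nupr1, Prss35, Sec16b, Prkar2b, Acoxl, Plat, Pdlim1, Cadps, Meox2 and Cavin3. Nupr1, a stress-induced nuclear protein, stood at 97.3, 112, 225 and 60.9 CPM in members and at 2357, 265, 1341 and 179 in Fxyd4-low nuclei (log2 -2.65 ± 0.23 SE, adjusted p = 9.97e-14, edgeR). In Fxyd4-low nuclei it was far higher in both mice numbered 1 than in those numbered 2, and it was lower in members of each mouse. Krt19, a keratin, and Plat, tissue plasminogen activator, were lower as well (log2 -2.69 and -2.54). Tmem54 counted 3 UMIs in all members and 52 in Fxyd4-low nuclei, which is 14.2 times less with an interval from the counts of 4.60 to 71.1. Calls for Mgst1, Btc, Sec16b and Cavin3 were lost without control mouse 1 (adjusted p of 0.166, 0.0524, 0.293 and 0.0557, edgeR), and that for Cavin3 also without control mouse 2 (0.145). Those for Mgst1, Btc and Cavin3 were also lost without nuclei holding UMIs of other types (0.208, 0.0663 and 0.0682, edgeR) and with mitochondrial UMIs under 1% (0.108, 0.162 and 0.0764), and that for Mgst1 by DESeq2 (0.0780).

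Markers of other cell types were present at low levels in both populations. Proximal tubule markers summed to 1139, 519, 1165 and 290.1 CPM in members of control mice 1 and 2 and knockout mice 1 and 2, with 8 of 8 genes detected, and to 1073, 554, 1674 and 536 in Fxyd4-low nuclei. Thick ascending limb markers summed to 243 to 692 in members and 416 to 484 in Fxyd4-low nuclei, and 1 of the 4 tested, Slc12a1, was higher in members. Intercalated cell markers summed to 31.1 to 185 in members with Slc26a7 at 0. In Fxyd4-low nuclei they summed to 9.72 to 26.7 with Foxi1 and Atp6v0d2 at 0. The 1 intercalated marker tested, Atp6v1g3, was higher in members (log2 2.69). Markers of the distal convoluted and connecting tubule summed to 72.9 to 112 in members and to 59.7 to 827 in Fxyd4-low nuclei, with 3 of 4 tested lower in members. Of the pelvis epithelium, 5 of 8 markers had UMIs in members, Upk3a, Krt5 and Krt15 were at 0, and Psca was lower than in Fxyd4-low nuclei. Endothelial markers summed to 5.19 to 57.7 in members with Cdh5 at 0, interstitial markers to at most 6.92 with Col1a2 and Dcn at 0, immune markers to 3.58 to 51.9 with Ptprc, Cd3e and Lyz2 at 0, and podocyte markers to at most 39.4 with Nphs1 and Wt1 at 0. Without nuclei that held 3 or more UMIs of other types, 441 genes differed, 392 of them among the 570.

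**Figure D3:**
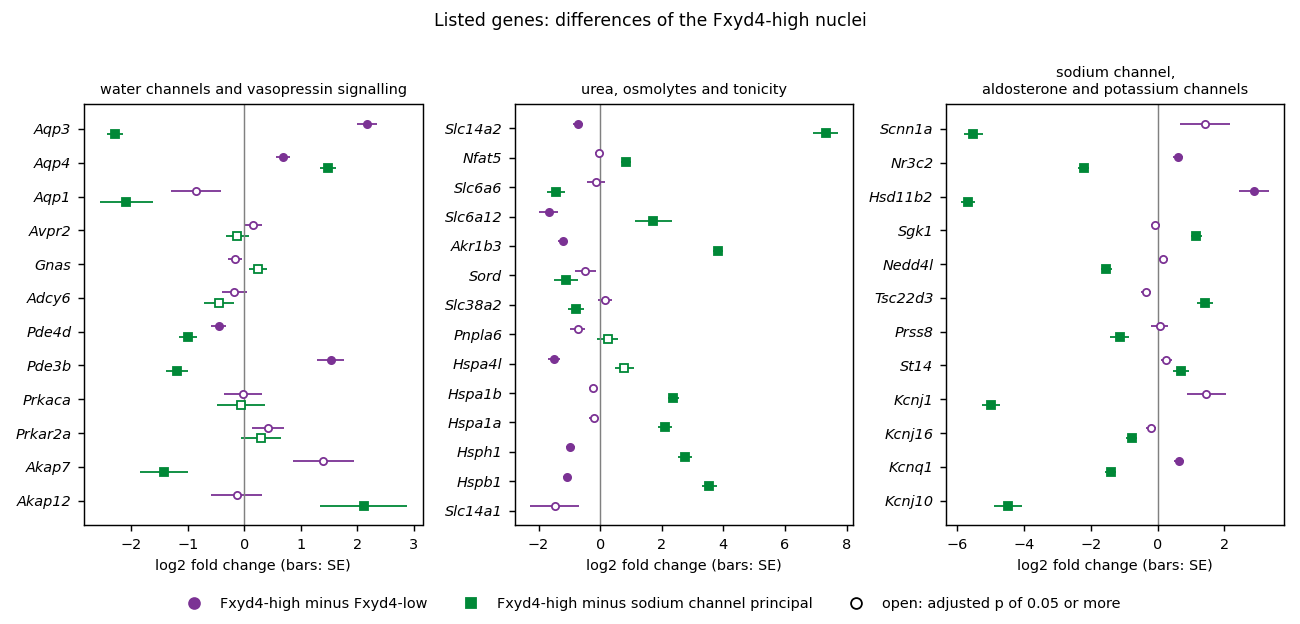
Log2 differences with SE (horizontal axes) for the tested genes of 3 lists, circles for Fxyd4-high minus Fxyd4-low nuclei and squares for Fxyd4-high minus sodium channel principal nuclei, with open symbols where the adjusted p was 0.05 or more. Akr1b3, Hspb1 and Hsph1 lie left of 0 against Fxyd4-low nuclei (-1.22, -1.07 and -0.96) and right of 0 against sodium channel principal nuclei (3.83, 3.55 and 2.75), and the point of Slc14a2 against the latter rests on 2 UMIs in them.

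The comparison with sodium channel principal nuclei asked how members differ from the Aqp2 and Fxyd4 expressing cells upstream. Of 9955 genes tested, 1069 were higher (10.7%) and 1026 lower (10.3%) in members at an adjusted p under 0.05 by edgeR, and the median log2 difference was 0.04. Members had more of urea, osmolyte and heat shock genes and of Wnt4, Wnt7b and Alcam, and less of sodium channel, aldosterone and potassium channel genes and of Aqp3. Markers of other segments also separated these populations. Thick ascending limb markers summed to 5598, 1102, 487 and 77.4 CPM in principal nuclei of control mice 1 and 2 and knockout mice 1 and 2, against 649.6, 635, 692 and 243 in members, so that the sum was above that of members in both controls and below it in both knockouts, while 4 of 4 tested were lower in members by edgeR. Distal convoluted and connecting tubule markers summed to 457 to 2281 against 72.9 to 112, with 2 of 3 lower, and intercalated cell markers to 209 to 635 against 31.1 to 185, with 5 of 6 lower. Their part in the differences was not tested, and without nuclei holding 3 or more UMIs of other types 1421 genes were called, 1356 of them among the 2095. Without control mouse 2, which held 81 of the 169 principal nuclei, 1359 genes were called, and DESeq2 called 995.

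Genes of sodium and potassium transport were lower in members in 9 of 12 tested, with a median log2 difference of -1.47, and 3 were higher. Scnn1a, the third sodium channel subunit, which the rule did not use but which is expressed with the others, stood at 17.4, 6.92, 17.3 and 3.58 CPM in members and at 746, 413, 408 and 495 in principal nuclei. The difference was 45.9-fold (log2 -5.52 ± 0.29 SE). Because the populations were split by UMIs of Scnn1b and Scnn1g, a lower Scnn1a follows from the selection. It is given as a description, although Scnn1a is among the 9 lower genes. Also lower were Hsd11b2 (log2 -5.66), the potassium channel gene Kcnj1 (-4.98) and Nr3c2 (-2.21). Higher were the kinase gene Sgk1 (2.24-fold) and Tsc22d3, both steroid-responsive genes, and the protease gene St14.

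Genes of urea, osmolytes and tonicity were higher in members in 8 of 13 tested and lower in 3, with a median log2 difference of 1.73. The rule asked members, but not principal nuclei, for at least 10 UMIs of Cryab, itself a gene of this list. The median of Cryab was 34.5 to 54 UMIs by mouse in members and 2 to 9 in principal nuclei. What part of these differences follows from that selection was not tested. Akr1b3 stood at 1768 to 4056 CPM in members and at 155 to 320 in principal nuclei, 14.2-fold apart (log2 3.83 ± 0.16 SE, adjusted p = 5.10e-48, edgeR). Hspb1 was 11.7-fold, Hsph1 6.74-fold and Nfat5 1.79-fold higher. The taurine transporter gene Slc6a6, Sord and the amino acid transporter gene Slc38a2 were the 3 that were lower. For Slc14a2, 681 UMIs were counted in members and 2 in principal nuclei, a ratio of 184 with an interval from the counts of 50.7 to 1522. Aldh1a3 likewise counted 1340 and 1 UMIs, a ratio of 724 with an interval of 129.7 to 28620.5 (here the interval covers counting error only, as do all such intervals).

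Against principal nuclei the water channels parted. Aqp4 was 2.80-fold higher in members (log2 1.48 ± 0.14 SE, adjusted p = 2.84e-18, edgeR), with 2320 to 3466 CPM against 654 to 1316. Aqp3 was lower (log2 -2.29 ± 0.15 SE, adjusted p = 4.41e-30, edgeR), with 273 to 497 against 1357 to 2384, so that members lay between Fxyd4-low and principal nuclei for this gene, with both differences past the test. Of the 12 tested water channel and vasopressin genes, 2 were higher and 5 lower in members. Avpr2 did not pass, with a log2 difference of -0.12 ± 0.20 SE.

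Among factors and signalling genes, Tfcp2l1 stood at 27.7 to 110 CPM in members and at 1426 to 1790 in principal nuclei (log2 -4.44 ± 0.20 SE, adjusted p = 8.48e-47, edgeR). Elf5, an ETS factor, was 4.90-fold higher, and 6 of 17 collecting duct factors tested were higher and 5 lower. Wnt4, a ligand of tubule formation, was 18.4-fold higher, at 691, 731, 790.4 and 842 against 19.9, 37.8, 54.1 and 61.9 CPM, and Wnt7b was 3.19-fold higher. The receptor gene Fzd4 was lower (log2 -2.44). Alcam, an immunoglobulin-type adhesion gene, was 4.97-fold higher, at 397 to 750.0 against 89.5 to 147. In the retinoid and prostaglandin list 3 genes were higher, among them Ptges, a prostaglandin E synthase (7.10-fold), and 4 were lower. Of 24 adhesion genes tested, 7 were higher and 6 lower.

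Some of the largest differences rest on an empty side. In principal nuclei no UMI was counted of Acpp, Fam124a, Fam83a, Igfbp2, Muc4, Plat and Tbx3os1, an antisense gene whose counting by strand is not given in the sources used here. Against the 3 counts that a count of 0 allows over the group, Fam124a was at least 20.4-fold and Plat at least 10.1-fold higher in members. Ednrb, an endothelin receptor gene, had 0 UMIs in members and 68 in principal nuclei, at least 41.9-fold lower. Rhcg, an ammonia channel of the collecting duct, stood at 10.4, 5.19, 5.77 and 0 CPM in members and at 477 to 712 in principal nuclei, and Mcoln3 and Pappa were lower likewise (log2 -6.70 and -6.09). Itga2, Gsdmc2 and St8sia6 were among the named higher genes, and Kcne1, Ptgfr, Atp2b2, Plxna4, Ncam2, Egfem1, Ipcef1 and Ralyl among the lower.

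Of the AP-2 genes, Tfap2b separated members from principal nuclei. Tfap2a stood at 76.4 and 102 CPM in members of control mice 1 and 2 and at 23.1 and 104 in those of knockout mice 1 and 2. In principal nuclei it stood at 139, 122, 78.7 and 186 and in Fxyd4-low nuclei at 25.0, 76.2, 69.3 and 44.7, and neither difference passed (adjusted p = 0.0821 and 0.291, edgeR). Tfap2b counted 7 UMIs in all members and was lower than in principal nuclei (log2 -4.55 ± 0.42 SE, adjusted p = 1.71e-18, edgeR).

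**Figure D4:**
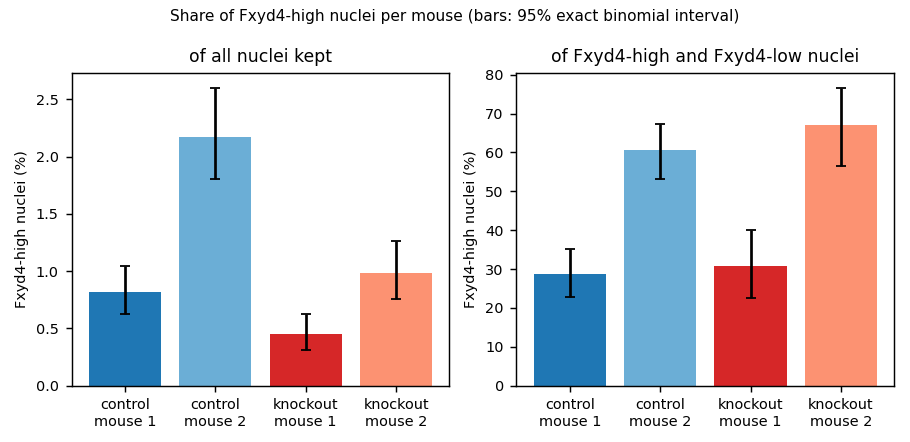
Fxyd4-high nuclei in percent (bars from 0, with the 95% exact binomial interval) of all nuclei kept (left) and of Fxyd4-high and Fxyd4-low nuclei together (right), 1 bar per mouse. On the left the bars are 0.814 and 2.17 in controls and 0.450 and 0.988 in knockout mice, and on the right both mice numbered 2 lie above both numbered 1.

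The share of members was compared between genotypes by an exact permutation test, in which 2 mice against 2 cannot give a p under 1 in 3. Members made up 0.814% and 2.17% of the nuclei kept in control mice 1 and 2 and 0.450% and 0.988% in knockout mice 1 and 2. The groups overlapped, and the mean share was 1.49% ± 0.961 (SD, n = 2) in controls and 0.719% ± 0.380 (SD, n = 2) in knockouts (two-sided exact permutation p = 0.667). The difference of -0.775 percentage points was -0.0953 without control mouse 2, and with nuclei of at least 5 UMIs of Aqp2 as the denominator it turned to 0.799. It was -1.27 after thinning to 2000 UMIs and -1.23 with mitochondrial UMIs under 1%, where the groups did not overlap, at 1.62% and 2.71% in controls and 0.762% and 1.11% in knockouts, with the smallest p that the exact permutation test allows. Since the tissue was cut by hand to enrich medulla, fewer IMCD cells in a mouse and less of its inner medulla in the slice cannot be told apart.

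Within the IMCD nuclei, members made up 28.6% (95% exact binomial interval 22.8 to 35.1) and 60.5% (53.3 to 67.4) in control mice 1 and 2, and 30.8% (22.6 to 40.0) and 67.0% (56.4 to 76.5) in knockout mice 1 and 2. This share was higher in both mice numbered 2 than in both numbered 1, whereas the genotypes overlapped (difference of 4.33 points, exact permutation p = 0.667). The difference between genotypes was -11.6 points without control mouse 1 and -13.8 without knockout mouse 2. After thinning to 2000 UMIs, with limits of 2 UMIs of Aqp2, 4 of Cryab and 2 of Fxyd4, the shares were 33.5% and 65.0% in controls and 37.9% and 73.3% in knockouts. The shares rest on 36 to 118 members per mouse.

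No gene passed the test between knockout and control members. Of 10335 genes tested by edgeR, 0 (0%) had an adjusted p under 0.05, and 143 were higher (1.38%) and 198 lower (1.92%) in knockouts at an unadjusted p under 0.05. DESeq2 also called 0, with 36 at an unadjusted p under 0.05. The median log2 change over all genes was -0.02. Without control mouse 1, 6 genes passed, with Ctse, Plcd3 and Dbp higher and Tnfrsf19, Gdf15 and Gm42418 lower.

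**Figure D5:**
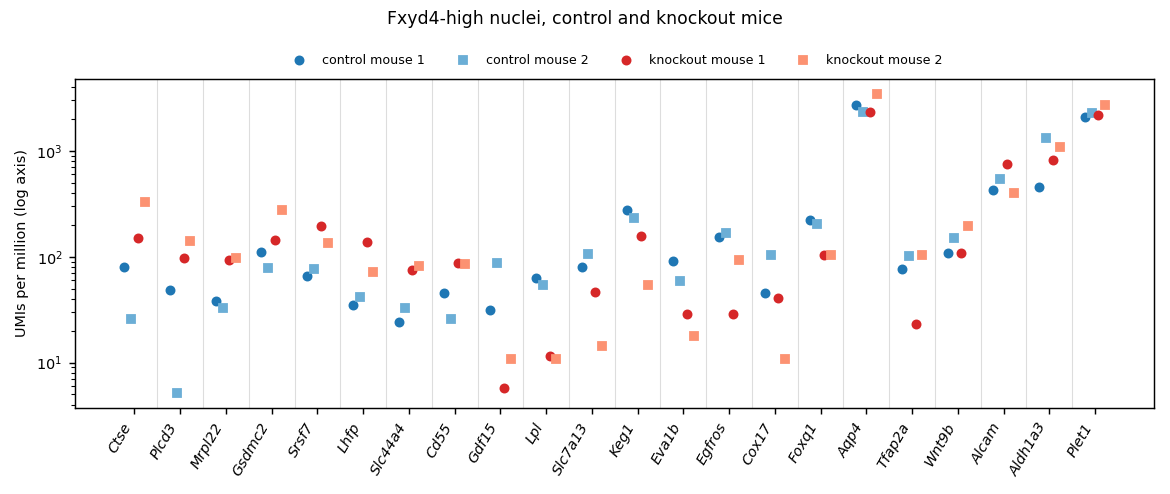
CPM in Fxyd4-high nuclei (vertical log axis) of the 16 genes with the smallest unadjusted p among those named and of 6 further genes, with 1 point per mouse, controls in blue and knockouts in red. None of these genes passed the test, and for Wnt9b, Alcam, Aldh1a3 and Tfap2a the groups overlap.

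Tfap2a, Wnt9b and Alcam, on which the study centred, did not pass the test between genotypes in these nuclei. The study reported lower Wnt9b and Alcam in another segment, the principal cells of the outer medullary collecting duct. There it used pooled nuclei and in situ hybridization, and the sums given here do not test that result. The study also reported changed genes in its inner medullary clusters, some of them shared with the outer medulla. Its clusters, its test over pooled nuclei and its limits differ from the members and sums used here, so the numbers of genes cannot be set side by side. For Tfap2a, 22 and 59 UMIs came from control mice 1 and 2 and 4 and 29 from knockout mice 1 and 2 (log2 -0.41 ± 0.44 SE, adjusted p = 0.999, edgeR), and knockout mouse 1 alone lay below the controls. Wnt9b, a Wnt ligand of the collecting duct, stood at 108 and 150.4 CPM in controls and at 109.6 and 193 in knockouts (log2 0.22 ± 0.36 SE, adjusted p = 0.999, edgeR). Alcam stood at 424 and 545 and at 750.0 and 397 (log2 0.20 ± 0.33 SE, adjusted p = 0.999, edgeR). In both genes 1 knockout mouse lay above both controls and the other did not. Fitted in the same way, the change of Wnt9b was 0.64 in Fxyd4-low and -1.42 in principal nuclei and that of Alcam was -0.80 and 0.37, with no adjusted p under 0.05.

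None of the IMCD markers passed the test between genotypes either. Aqp4 stood at 2706 and 2320 CPM in controls and 2337 and 3466 in knockouts, Plet1 at 2109 and 2282 against 2192 and 2732, and Aldh1a3 at 455 and 1319 against 819 and 1089. The changes were 0.19 ± 0.34, 0.15 ± 0.33 and 0.07 ± 0.38 on the log2 scale (SE). Of 12 water channel and vasopressin genes tested, 0 passed and the median change was -0.04, and of 13 genes of urea, osmolytes and tonicity 0 passed with a median of 0.08. Of 14 Wnt genes and 22 adhesion genes tested, 0 passed, with medians of -0.18 and -0.01.

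The smallest p-values belonged to Ctse, the protease cathepsin E, and Plcd3, a phospholipase C. Ctse stood at 79.9 and 25.9 CPM in controls and at 150.0 and 326 in knockouts, from 23, 15, 26 and 91 UMIs (log2 2.33 ± 0.44 SE, adjusted p = 0.148, edgeR). It was found in 18 of 63 and 15 of 118 members of control mice and in 14 of 36 and 40 of 61 of knockout mice. Plcd3 stood at 48.6 and 5.19 in controls and at 98.1 and 140 in knockouts (log2 2.45 ± 0.55 SE, adjusted p = 0.405, edgeR). For both genes each knockout mouse lay above each control, which was a condition of naming them. The call for Ctse appeared without control mouse 1 (adjusted p = 4.82e-07, edgeR), and over its alternatives the adjusted p ranged from 4.39e-08 to 1.00.

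None of the other genes named for small p-values passed either. Higher in both knockouts than in both controls were Mrpl22, Gsdmc2, the splicing factor gene Srsf7, Lhfp, the transporter gene Slc44a4 and the complement regulator gene Cd55, with log2 values of 1.16 to 1.41 and an adjusted p of 0.999 each. Lower were Gdf15, Lpl, Slc7a13, Keg1, Eva1b, the antisense gene Egfros, Cox17 and Foxq1. Gdf15, a stress cytokine, counted 9 and 50 UMIs in controls and 1 and 3 in knockouts (log2 -2.80 ± 0.70 SE, adjusted p = 0.836, edgeR). Lpl, lipoprotein lipase, counted 18 and 31 against 2 and 3, and the transcription factor gene Foxq1 stood at 222 and 206 against 104 and 104 CPM.

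Slc7a13 is a transporter gene of the proximal tubule, and its level there and in free RNA is given beside that in members. It stood at 79.9 and 105 CPM in control members and at 46.2 and 14.3 in knockout members, against 1050.1 and 1230 in proximal tubule nuclei of the controls and 784 and 799 in those of the knockouts. In barcodes under 100 UMIs, which hold free RNA, it stood at 681 and 899 in controls and at 581 and 455 in knockouts. Of its 23 and 61 UMIs in members of control mice 1 and 2, 17 and 41 lay in the 5 nuclei with most. The 8 UMIs of knockout mouse 1 lay in 8 nuclei, and the 4 of knockout mouse 2 lay in 1 nucleus. The parts of free RNA and of single nuclei with many UMIs in its difference were not tested. Of the 8 proximal tubule markers 0 passed, and their median change was -0.53, but Slc5a12 went the other way, at 6.95 and 3.46 CPM in control and 63.5 and 21.5 in knockout members (log2 2.95 ± 0.80 SE, adjusted p = 0.999, edgeR), and Slc34a1 also lay above 0 (log2 0.74). The median share of mitochondrial UMIs in members was 1.34% and 0.568% in control mice 1 and 2 and 0.785% and 0.265% in knockout mice 1 and 2.

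Whether a genotype difference in members differed from that in Fxyd4-low nuclei was tested as an interaction over the same 4 mice. Of 10657 genes, 2 passed (0.0188%), and both had a lower change in members. For Gk, glycerol kinase, the members counted 43 and 29 UMIs in controls and 10 and 8 in knockouts. The Fxyd4-low nuclei counted 55 and 11 against 67 and 13 (log2 -2.59 ± 0.48 SE, adjusted p = 0.0206, edgeR). Of the 43 and 29 UMIs of Gk in control members, 32 and 16 lay in the 5 nuclei with most of each mouse. With doublets left out the log2 difference of Gk was -1.81 and did not pass. For Slc12a3, the transporter of the distal convoluted tubule, members counted 6 and 5 against 4 and 2 UMIs and Fxyd4-low nuclei 7 and 2 against 21 and 55 (log2 -5.05 ± 1.01 SE, adjusted p = 0.0463, edgeR). All 55 UMIs of Slc12a3 in Fxyd4-low nuclei of knockout mouse 2 lay in 1 nucleus, and without this mouse the log2 difference was -2.28 (adjusted p = 0.992, edgeR). Calls numbered 0 without knockout mouse 2, 4 without control mouse 1, 7 without control mouse 2, and 0 by DESeq2 or with doublets left out.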

How the data were processed

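The authors aligned the reads to mm10 with Cell Ranger 3.0.2 and deposited UMI count matrices of 31053 genes, 1 per mouse. From these, the 10000 barcodes with most UMIs were taken per mouse, and those kept had more than 500 but fewer than 4000 genes and mitochondrial UMIs below 5%, as in the study's methods. CPM are the counts of a gene per 1000000 UMIs of the summed nuclei. Counts were summed per mouse and population and tested with edgeR 4.0.16 (quasi-likelihood, TMM, Benjamini-Hochberg) in R 4.3.3, on genes with at least 10 UMIs over the sums between genotypes or 20 between populations. The 5 selection genes were left out of the tests. DESeq2 1.42.0 was an alternative. The study itself compared pooled nuclei. Its cluster names were not used here. The tests were tried on simulated data first. Scores against simulated doublets (scikit-learn 1.9.0, Python 3.11.15) called 0.8% of nuclei for each 1000 nuclei in a library. Proximal tubule nuclei held at least 2 UMIs of Slc34a1 and 3 of Lrp2. For shares with a UMI, nuclei were thinned to 2000 UMIs and shallower ones left out. Intervals are 95% exact (Clopper-Pearson) and cover counting error only.

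Members and gene lists were chosen with earlier results of these data known. Named genes are the selection genes and markers, AP-2 genes, Wnt9b and Alcam, listed genes, and at most 12 genes in each direction, by log2 fold change, among called genes of at least 50 UMIs and the same direction in every mouse or in all 4 pairs of mice. Where under 5 genes passed between genotypes, up to 8 per direction with the smallest unadjusted p were named. Predicted and mitochondrial genes were skipped in naming. A gene that the rule names is not reported here. Alternatives changed the scaling, the filter on low counts, the mice, the limits of the rule, doublets, mitochondrial share and depth. Nothing in the labels says more of the mice than their group and number. The edgeR p-values between genotypes set a change against the spread between 2 mice per group, which the method partly shares over all genes tested. A small p-value thus does not rest on the gene's own spread between these mice alone. Those between populations and of the interaction were fitted with the mouse as a term. They set the difference within a mouse against its variation over the 4 mice, a spread that is again partly shared over genes.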

Additional observations from a re-analysis of the deposited data

Results flagged for a closer look

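For 2 genes the knockout change in Fxyd4-high nuclei differed from that in Fxyd4-low nuclei by the test of the difference itself. For Gk the difference of the changes was -2.59 on the log2 scale, with 149 and 50.1 CPM in members of the control mice, 57.7 and 28.6 in those of the knockout mice, and 76.3 and 28.9 against 179 and 96.8 in Fxyd4-low nuclei. Its adjusted p (edgeR) ranged from 0.00253 to 1.00 over the alternatives. The difference was -1.39 with mitochondrial UMIs under 1% and -1.81 with doublets left out. For Slc12a3 the difference was -5.05, with 20.8 and 8.65 CPM in control members, 23.1 and 7.16 in knockout members, and 9.72 and 5.25 against 56.0 and 410 in Fxyd4-low nuclei. The 76 UMIs of Slc12a3 in Fxyd4-low nuclei of knockout mice lay in 6 nuclei, and its adjusted p (edgeR) ranged from 0.000656 to 1.00. Without knockout mouse 2, whose 55 UMIs lay in 1 nucleus, the difference was -2.28.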

How the results depend on the processing

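Between genotypes 0 genes passed in the test reported and by DESeq2, but 4 without a filter on low counts (Ctse, Plcd3 and Dbp higher, mt-Nd4l lower), 1 with mitochondrial UMIs under 1% (Ctse), 3 with Fxyd4 of at least 10 UMIs (Ctse and Spp1 higher, Slc12a1 lower) and 0 to 6 when a mouse was left out. With the mouse number as a replicate block 16 passed, 5 higher (Ctse, Plcd3, Spp1, Fcgbp and Dbp) and 11 lower, of which mt-Co3, mt-Nd4l, mt-Nd2, mt-Atp6 and mt-Nd6 are mitochondrial and the others were Gm42418, Keg1, Ranbp3l, Gdf15, Slc7a13 and Egfr, and the interaction gave 0. Whether the numbers mark a shared batch is not given in the labels. Deviations from the group mean of mice with the same number correlated at 0.20 in members, 0.28 in Fxyd4-low and 0.12 in principal nuclei. With 2 mice per group the deviations in a group are opposite, so both pairs give the same value and each correlation is 1 observation. Between members and Fxyd4-low nuclei, 570 genes became 191 by DESeq2, 315 with mitochondrial UMIs under 1%, 212 without the mouse term and 295 to 545 when a mouse was left out. Against principal nuclei, 2095 became 995 by DESeq2, 1378 in control mice alone and 1359 to 1866 when a mouse was left out. The interaction calls went from 2 to 0 by DESeq2, with size factors, with edgeR's own filter or without doublets, to 1 without nuclei holding UMIs of other types, to 4 without a filter on low counts, and to 0 to 7 when a mouse was left out. Without a mouse the remaining sum of its group was assumed to vary like the others.

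The difference in share of nuclei kept was -1.27 after thinning and -1.23 with mitochondrial UMIs under 1%, turned to 0.799 points with Aqp2 nuclei as the denominator and ranged from -1.45 to -0.0953 when a mouse was left out. That within the IMCD nuclei ranged from -13.8 to 22.5, turning to -11.6 without control mouse 1. The genotype values of Tfap2a, Wnt9b and Alcam did not pass: that of Tfap2a ranged from -1.99 to 0.18 when a mouse was left out and was 0.043 with Fxyd4-low nuclei added, that of Wnt9b ranged from -0.29 to 0.55, and that of Alcam ranged from -0.30 to 0.60 and was -0.24 with Fxyd4-low nuclei added. For named genes, 343 of the alternative values against Fxyd4-low nuclei kept their call and 12 lost it, and 356 and 1 did so against principal nuclei. The causes were not tested. With 2 mice per group and 36 to 118 members in each, the SE of a genotype value was 0.33 even for Plet1, found in nearly all members.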

Other observations

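Immediate early and stress genes, which respond within minutes to stimulation or handling of tissue, were a further list. Of 11 tested against Fxyd4-low nuclei, 2 were lower, the phosphatase gene Dusp1 and the transcription factor gene Egr1, none was higher, and the median log2 difference was 0.02. Dusp1 stood at 48.6 and 10.4 CPM in members of control mice 1 and 2 and at 17.3 and 39.4 in those of knockout mice 1 and 2, against 72.2, 47.3, 50.7 and 89.4 in Fxyd4-low nuclei (log2 -1.17 ± 0.31 SE, adjusted p = 0.0120, edgeR). Egr1 counted 3 UMIs in all members and 32 in Fxyd4-low nuclei, a ratio of 8.73 with an interval from the counts of 2.73 to 44.6. Against principal nuclei, Btg2, Junb and Dusp1 were the 3 of 9 tested that were higher in members. Between genotypes 0 of 10 passed, with 1 lower at an unadjusted p under 0.05.

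Of the thin limb list, which shares Slc14a2 with the urea list, Slc14a2 was called in both comparisons of populations, and Aqp1 was lower than in principal nuclei, though not in each mouse. In members these markers summed to 340.4 and 692 CPM in control mice 1 and 2 and to 583 and 806 in knockout mice 1 and 2. Of the endothelin and nitric oxide genes, 8 of 9 did not pass the filter on low counts in members and Fxyd4-low nuclei.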
